A study of Homo sapiens with 4 samples.

Results

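Nuclear receptor genes are examined here as binding loci for 3 chromatin proteins in HepG2, an established cell line derived from a human liver tumour. The loci are those of 10 genes, RXRA, PPARA, NR1H4, NR0B2, NR1I2, NR5A2, NR2F2, NR2F6, NR1D1 and ESRRA. A peak was taken as belonging to a locus when it overlapped the gene or the 10 kb on either side of it in the hg19 build. This gave 33 of the 29441 peaks obtained with the SMRC1 antibody, 15 of the 13643 obtained with the NFIC antibody and 1 of the 3296 obtained with the SATB1 antibody, 49 peaks of 46380 in all. The windows were set by gene positions and not by the value of a peak. The genes themselves were chosen with earlier results of these data known.

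The 3 immunoprecipitated groups were untreated HepG2 cells that differed only in the antibody, and all were fixed with 1% formaldehyde for 10 min. Each antibody was represented by 1 library, so no value has a replicate error, and every interval here covers counting error only. A labelled input library was not analysed here. SMRC1 is another name of SMARCC1, or BAF155, which belongs to the core of the SWI/SNF complexes that move nucleosomes. NFIC is a member of the nuclear factor I family and SATB1 a chromatin organiser that binds AT-rich DNA. Peak lists hold no expression values, so the identity of the cells was not checked against markers.

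Nuclear receptors are transcription factors with a zinc finger DNA-binding domain and, in most members, a pocket for a small lipophilic ligand. Many liver members bind DNA as heterodimers with RXRA, the retinoid X receptor. In hepatocytes NR1H4 (FXR) senses bile acids and induces NR0B2 (SHP), a receptor without a DNA-binding domain that represses genes of bile acid synthesis. NR5A2 (LRH) activates some of the same genes, NR1I2 (PXR) senses drugs and other foreign compounds, and PPARA drives fatty acid oxidation. NR2F2 and NR2F6 belong to the COUP-TF group, NR1D1 (REV-ERB alpha) is a repressor of the circadian clock, and ESRRA is an orphan regulator of mitochondrial metabolism.

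The start regions of 3 loci are shown because they differ in the peaks at the 5′ end of the gene in hg19. This end was covered by peaks of 2 antibodies at NR1D1 and had an SMRC1 peak on either side at ESRRA. At NR1I2 the nearest peak summit lay 15.8 kb from it. Each region runs from 250 bases before to 50 bases after a start annotated by RefSeq in GRCh38.p14, in the direction of transcription. It is the first such entry of its gene. These starts were not matched to the hg19 gene ends. NR1I2 is 36.4 kb long in RefSeq and 39 kb in the choice of loci, so its printed start can differ from the end used for distances. The windows lie at chr17:40100540-40100839 (minus strand) for NR1D1, chr11:64305274-64305573 (plus strand) for ESRRA and chr3:119781851-119782150 (plus strand) for NR1I2. The table held starts for 8 of the 10 genes. The peaks are positioned in hg19, so a base of these windows was not assigned to a peak. The search covered both strands. Capitals mark a match to TTGGC, the core of the motif bound by nuclear factor I proteins, whose reverse complement reads GCCAA. Matches to the core motif of many nuclear receptors, which is AGGTCA or its reverse complement, would be in capitals too, but none occurs in these windows.
NR1D1: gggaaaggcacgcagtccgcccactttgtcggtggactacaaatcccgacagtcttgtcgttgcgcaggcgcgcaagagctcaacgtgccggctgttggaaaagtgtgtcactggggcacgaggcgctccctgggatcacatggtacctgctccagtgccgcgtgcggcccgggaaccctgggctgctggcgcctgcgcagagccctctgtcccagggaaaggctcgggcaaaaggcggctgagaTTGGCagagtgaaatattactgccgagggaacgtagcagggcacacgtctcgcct
ESRRA: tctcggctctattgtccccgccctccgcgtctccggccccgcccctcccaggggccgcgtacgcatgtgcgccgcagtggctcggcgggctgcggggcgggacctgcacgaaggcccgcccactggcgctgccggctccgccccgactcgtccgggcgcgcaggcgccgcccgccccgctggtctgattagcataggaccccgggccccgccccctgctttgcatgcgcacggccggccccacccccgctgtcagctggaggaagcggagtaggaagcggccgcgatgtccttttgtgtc
NR1I2: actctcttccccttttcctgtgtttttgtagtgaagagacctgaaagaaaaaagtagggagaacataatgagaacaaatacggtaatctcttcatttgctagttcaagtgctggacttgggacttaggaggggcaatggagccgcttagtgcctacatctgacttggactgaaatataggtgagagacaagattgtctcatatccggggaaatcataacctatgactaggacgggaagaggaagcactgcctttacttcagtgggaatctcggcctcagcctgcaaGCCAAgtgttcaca

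The NR1D1 window holds 1 TTGGC match, starting 5 bases before the annotated start, and no AGGTCA match. The ESRRA window holds neither motif, and the NR1I2 window holds 1 GCCAA match, which starts 36 bases after the start. The other NR1I2 entry, not shown, holds 2 matches to TTGGC on either strand. So does the first NR2F2 window, and the second NR5A2, the NR1H4 and the first PPARA window hold 1 each. The remaining windows of the 8 genes hold none. AGGTCA on either strand has 1 match in the NR1H4 window and 1 in the first NR5A2 window, also not shown. TTGGC on either strand occurs in 45.6% of the 35116 start windows of the same length and AGGTCA in 13.8%. The full palindrome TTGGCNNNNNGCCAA occurs in 0.0285% of them and in none of the windows of these 8 genes. The windows differ in base composition, with a GC content of 63.0% and 24 CpG dinucleotides for NR1D1, 75.0% and 39 for ESRRA, and 45.3% and 5 for NR1I2, against medians of 58.7% and 14 over the table. The first RXRA window has 84.0% GC and the PPARA windows 85.7% and 86.7%. Neither gene had a peak with an edge within 2 kb of its 5′ end in hg19, which was given to 1 kb. Peaks lay just past this limit, with the nearest SMRC1 summits at 2.72 kb (RXRA) and 2.44 kb (PPARA). The nearest NFIC summits were at 2.68 and 2.40 kb. A motif match is a description of letters and does not identify a bound site.

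Peaks were more frequent in the nuclear receptor loci than over the genome for SMRC1 and NFIC. The windows covered 743 kb and held 44.4 SMRC1 peaks per Mb against 9.51 per Mb over the genome, a ratio of 4.67 (95% interval 3.22 to 6.56). For NFIC the values were 20.2 and 4.41 per Mb, a ratio of 4.58 (2.56 to 7.55). For SATB1 they were 1.35 and 1.06 per Mb, a ratio of 1.26 whose interval of 0.0320 to 7.04 includes a ratio of 1. These intervals treat every peak as independent and leave out the spread between loci. Peaks were grouped within loci, with 21 of the 33 SMRC1 peaks at the 5 shortest genes. The intervals are therefore too narrow to serve as a test of enrichment. An SMRC1 peak was present at 10 of the 10 loci, an NFIC peak at 8 and a SATB1 peak at 1. When the genome was divided into consecutive pieces of 47 kb, the median length of the windows, 24.6% of the pieces held an SMRC1 peak, 15.6% an NFIC peak and 4.31% a SATB1 peak. The windows ran from 24 kb (NR0B2) to 171 kb (NR5A2). With pieces as long as each window, the shares ran from 15.8 to 47.0% for SMRC1, 9.05 to 36.7% for NFIC and 2.33 to 13.2% for SATB1. These pieces include gene-poor stretches and assembly gaps, so the comparison does not separate nuclear receptor genes from genes in general.

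The density was uneven between loci and highest at the short genes. The 5 genes of at most 15 kb (NR0B2, NR1D1, ESRRA, NR2F6 and NR2F2) held 137 SMRC1 and 58.8 NFIC peaks per Mb in 153 kb of windows. The 5 genes of 39 kb or more (NR1I2, NR1H4, PPARA, RXRA and NR5A2) held 20.3 and 10.2 per Mb in 590 kb. Each short gene contributes the same 20 kb of flanks as a long one, so its window lies closer to the gene ends. This division by gene length was made after the peaks had been seen. NR0B2 was the densest locus, with 20.8 SMRC1 and 16.7 NFIC peaks per 100 kb, and its 24 kb window consisted of 20 kb of flanks. NR2F6 followed with 20.6 SMRC1 peaks per 100 kb and NR2F2 with 14.3. NR5A2, the longest gene at 151 kb, was the only locus below the SMRC1 mean of the genome, with 0.585 against 0.951 per 100 kb. Other protein-coding genes reach into 7 of the windows according to RefSeq positions in GRCh38.p14. They include CDPF1 at PPARA, GAS2L3 at NR1H4 and GSK3B at NR1I2. A peak of a window was therefore not assigned to the receptor gene itself.

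**Figure D1:**
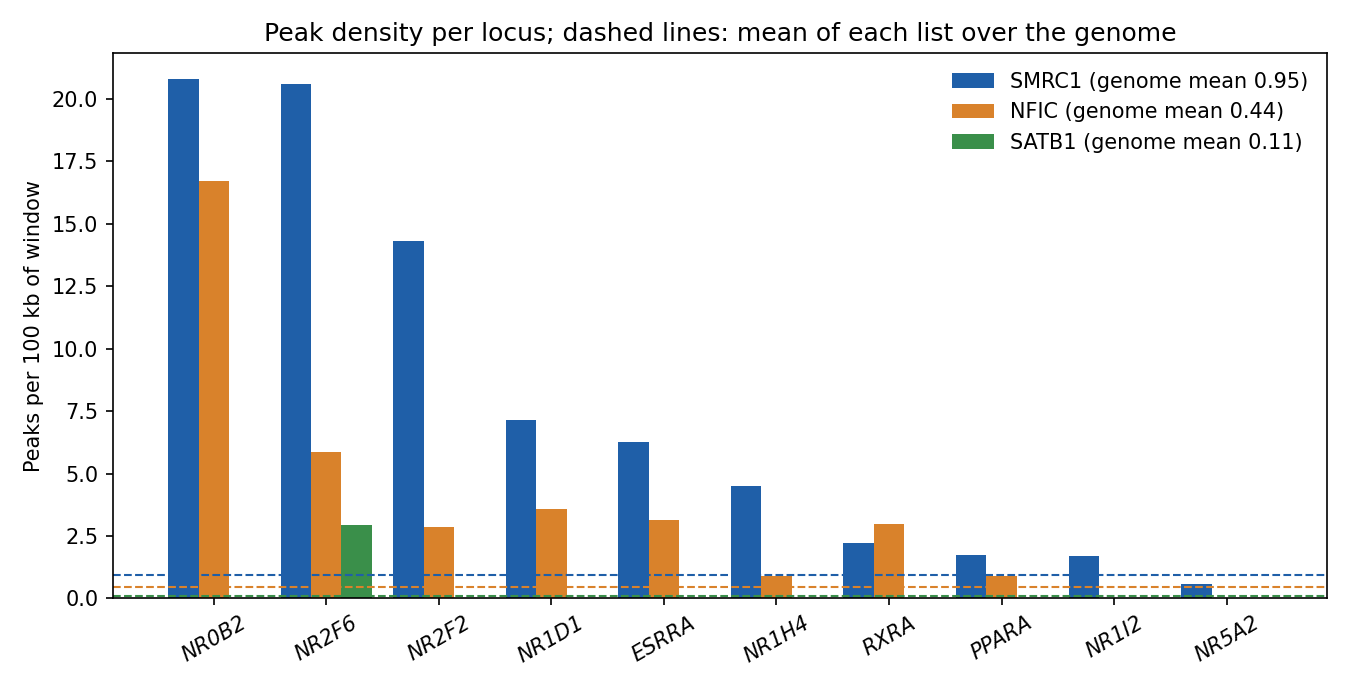
Peaks per 100 kb of window at each locus, by antibody (bars, 1 library each), with the mean of each list over the genome as dashed lines. NR0B2 (20.8) and NR2F6 (20.6) had the highest SMRC1 values, and NR5A2 (0.585) lay below the SMRC1 mean of 0.951.

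**Figure D2:**
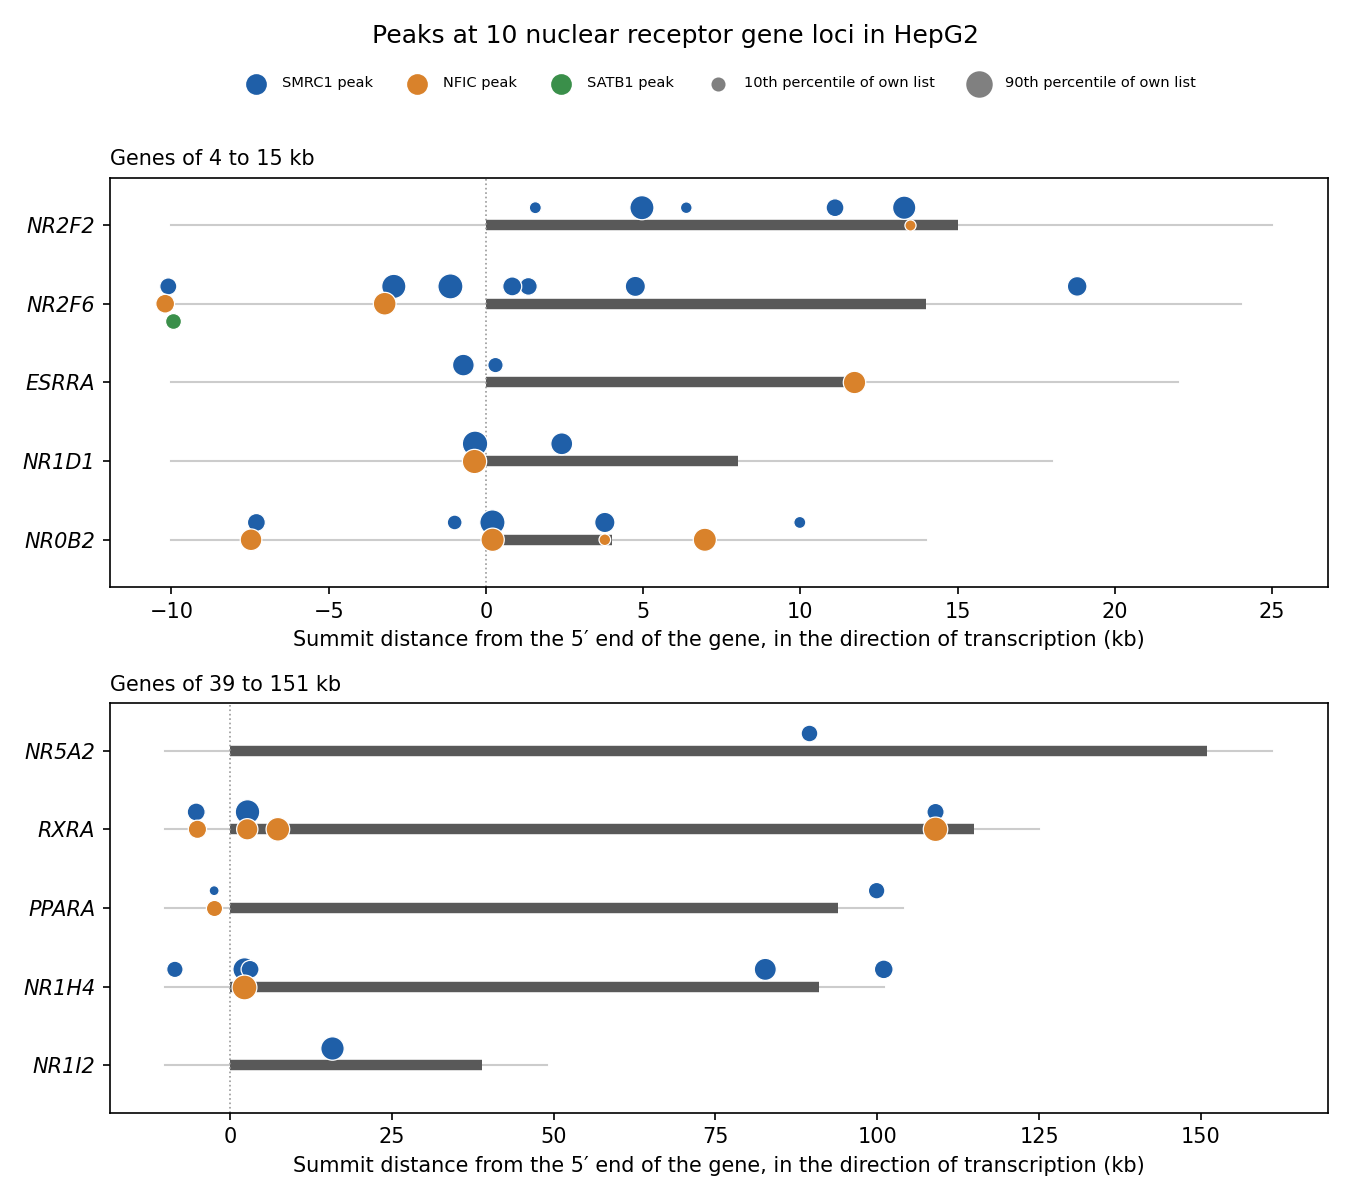
Position of every peak summit relative to the 5′ end of its gene, in kb along the direction of transcription. Thick bars are genes, thin lines the 10 kb flanks, and the area of a point grows with the percentile of the peak in its own list. Points of SMRC1 and NFIC sit above one another at the start of NR1D1 and NR0B2, whereas NR1I2 and NR5A2 have 1 SMRC1 point each.

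Peak strength is given below by 3 values of the authors' peak caller or derived from them. The fold is the authors' ratio of signal at the summit to the local background, and −log10 q is their significance on a log scale. The percentile is the position of the peak by −log10 q in its own list, with 100 the strongest. Reads at the summit, and the local background in fragments on the scale of the peak caller, were solved from these values. SMRC1 reads enter the fold after division by 1.29. Distances are from the 5′ end of the gene in hg19, which was given to 1 kb.

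RXRA, on chromosome 9 (gene at 137218 to 137333 kb), carried 3 SMRC1 and 4 NFIC peaks. It was the only locus where NFIC peaks outnumbered SMRC1 peaks, in lists of unequal size (29441 SMRC1 and 13643 NFIC peaks). The strongest SMRC1 peak, at 137220344 to 137221242, lay 2.72 kb into the gene with a fold of 6.66 and 93 reads (percentile 91.4). An NFIC peak of fold 4.30 and 46 reads overlapped it, with summits 41 bp apart. Toward the other end of the gene the order of strength was the opposite. There, 109 kb downstream of the start, the strongest NFIC peak of the locus (137326551 to 137327151, fold 8.56, 66 reads, percentile 90.7) overlapped an SMRC1 peak of fold 3.36 and percentile 37.1. The remaining overlapping pair lay upstream, with the SMRC1 summit at 5.21 kb (fold 3.65) and the NFIC summit at 5.02 kb (fold 4.10). The other NFIC peak, 7.41 kb into the gene, had a fold of 6.70 and 53 reads and no SMRC1 peak.

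PPARA, on chromosome 22 (46546 to 46640 kb), had no peak of any list inside the 94 kb gene. An SMRC1 and an NFIC peak overlapped upstream, with the NFIC summit 2.40 kb before the start. The SMRC1 peak there was the weakest of all 33, with a fold of 2.55, 25 reads and a percentile of 2.27. The NFIC peak (46543338 to 46543700) had a fold of 4.14, also 25 reads, and a percentile of 31.3. Another SMRC1 peak lay 5.87 kb past the 3′ end with a fold of 3.21. At 1.75 SMRC1 and 0.877 NFIC peaks per 100 kb, PPARA had a lower density than all other loci but NR1I2 and NR5A2. Pieces of the genome as long as its window held as many SMRC1 peaks in 24.5% of cases.

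NR1H4, which encodes the bile acid receptor FXR, lies on chromosome 12 (100867 to 100958 kb). It carried 5 SMRC1 peaks and the most significant NFIC peak of the 10 loci. This NFIC peak, at 100868767 to 100869450 and 2.1 kb into the gene, had a fold of 7.86, 94 reads and rank 814 of 13643. The overlapping SMRC1 peak (100868691 to 100869943) had 91 reads but a fold of 4.22, with a local background of 16.0 fragments at its summit against 11.0 at the NFIC summit 164 bp away. A weaker SMRC1 peak of fold 3.56 followed at 3.11 kb. The other SMRC1 peaks had no NFIC partner and lay 8.50 kb upstream (fold 4.30), 82.7 kb into the gene (fold 5.86, percentile 70.9) and 9.61 kb past its 3′ end (fold 3.51).

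NR0B2, the gene of the corepressor SHP, is the shortest of the set (chromosome 1, 27237 to 27241 kb). Its 24 kb window held 5 SMRC1 and 4 NFIC peaks, a number reached by 0.164% and 0.0473% of all genome pieces of that length. The SMRC1 peak at the start (27240078 to 27241374) had the highest fold of the 33, 9.35, with 116 reads and rank 868 of 29441. The NFIC peak inside it had a fold of 5.78 and 55 reads, and the summits were 6 bp apart. At the 3′ end of the gene another pair had summits 1 bp apart, with folds of 4.63 for SMRC1 and 3.33 for NFIC. The remaining pair lay upstream, with the SMRC1 summit at 7.30 kb (fold 3.01, 53 reads) and the NFIC summit at 7.47 kb (fold 4.91, 42 reads). NFIC alone was called 2.96 kb past the 3′ end, with a fold of 6.21, the highest NFIC fold of the locus. SMRC1 alone was called 0.995 kb upstream (fold 3.09) and 5.98 kb past the 3′ end (fold 3.03). The window also reaches the gene NUDC, which overlaps NR0B2 in RefSeq.

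NR1I2, the gene of the xenobiotic receptor PXR, had 1 peak in its 59 kb window (chromosome 3, gene at 119499 to 119538 kb). This SMRC1 peak, at 119513813 to 119515261, lay 15.8 kb into the gene and was 1449 bp wide, with a fold of 6.14, 62 reads and a percentile of 81.9. The nearest NFIC peak of the whole list was 311 kb from the start and the nearest SATB1 peak 315 kb. NR5A2, on chromosome 1 (199996 to 200147 kb), likewise had a single SMRC1 peak, here 89.5 kb into the gene at 200085333 to 200085660. Its values were lower, with a fold of 3.52, 35 reads and a percentile of 34.3. The nearest NFIC peak lay 288 kb from the start of NR5A2 and the nearest SATB1 peak 643 kb. Measured from any part of this long gene, the distances were 136 kb for NFIC and 492 kb for SATB1. The NR1I2 peak thus stood high in the SMRC1 list and the NR5A2 peak below its median. Pieces of the genome as long as these windows held at least 1 SMRC1 peak in 28.2% (59 kb) and 47.0% (171 kb) of cases, so a single peak is not unusual for such lengths.

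The COUP-TF loci together held 12 SMRC1 peaks in 69 kb of windows. NR2F2, on chromosome 15 (96869 to 96884 kb), carried 5 SMRC1 peaks, all inside the 15 kb gene and none in its flanks. The strongest by significance lay 4.96 kb into the gene (96873428 to 96874344, fold 7.11, 72 reads, percentile 87.7). The one with the highest fold lay 13.3 kb into the gene (96881792 to 96882882, fold 8.75, percentile 80.6). That peak had 42 reads on a local background of 2.84 fragments, the lowest of the 33 SMRC1 peaks. The other SMRC1 peaks of NR2F2 had folds of 3.14, 3.46 and 4.75 at 1.57, 6.37 and 11.1 kb. NFIC was weak, with 1 peak of fold 3.85 and 16 reads inside the SMRC1 peak at 13.3 kb, at percentile 6.53 of its list. The nearest SATB1 peak was 1481 kb away.

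NR2F6, on chromosome 19 (17342 to 17356 kb), had 7 SMRC1 peaks, the most of any locus, and they covered 17.4% of its 34 kb window. Of all genome pieces of 34 kb, 0.0582% held as many. The strongest, at 17355998 to 17358164, was the widest of the 33 at 2167 bp, with its summit 1.13 kb upstream of the start (fold 7.84, 119 reads, percentile 96.0), and it had no NFIC peak. The next, 2.93 kb upstream (17358532 to 17359263), had a fold of 6.47 and 82 reads and overlapped an NFIC peak of fold 5.14 and 52 reads. Inside the gene SMRC1 peaks followed at 0.836, 1.35 and 4.75 kb with folds of 3.82, 3.73 and 5.67, and another lay 4.81 kb past the 3′ end (fold 3.34). About 10 kb upstream, near the edge of the window, peaks of all 3 antibodies overlapped. There the SMRC1 peak (17365859 to 17366253) had a fold of 4.61 and 25 reads, the NFIC peak (17365946 to 17366377) a fold of 5.71 and 22 reads, and the SATB1 peak (17365832 to 17366235) a fold of 4.27 and 16 reads. All 3 were below the median of their lists, at percentiles 36.1, 47.0 and 29.3. The genes OCEL1 and USHBP1 reach into the window in RefSeq, so this site was not assigned to NR2F6.

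NR1D1, on chromosome 17 (38249 to 38257 kb), had the most significant SMRC1 peak of the 10 loci. It spanned the start (38256767 to 38257924), with a −log10 q of 82.1, rank 250 of 29441, 199 reads and a fold of 8.18. The NFIC peak at the same place (38256714 to 38257694) had a fold of 5.24 and 94 reads (percentile 89.4), and the summits were 23 bp apart. The local background was also the highest of the loci here, at 18.0 fragments for SMRC1 and 17.0 for NFIC. A broad SMRC1 peak of 1433 bp without NFIC lay 2.41 kb into the gene, with a fold of 3.62 and 78 reads. NR1D1 overlaps THRA, the thyroid hormone receptor alpha gene, and a peak inside NR1D1 could not be assigned to either gene by position alone.

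ESRRA, on chromosome 11 (64073 to 64085 kb), differed from NR1D1 in that its SMRC1 and NFIC peaks were at opposite ends of the gene. SMRC1 peaks lay on either side of the start, 0.718 kb upstream (64072017 to 64072615, fold 4.63, 53 reads) and 0.303 kb downstream (64073128 to 64074772, fold 2.80, 44 reads). The second was the wider of the pair, 1645 bp, and had a percentile of 26.3, against 67.9 for the first. The only NFIC peak lay 11.7 kb into the 12 kb gene (64084395 to 64084956) with a fold of 5.37, 46 reads and a percentile of 73.9, and no SMRC1 peak overlapped it. Another 4 protein-coding genes, CATSPERZ, KCNK4, PRDX5 and TRMT112, reach into this window in RefSeq. Of these, TRMT112 overlaps ESRRA itself, so the peaks of this window were not assigned to a gene.

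**Figure D3:**
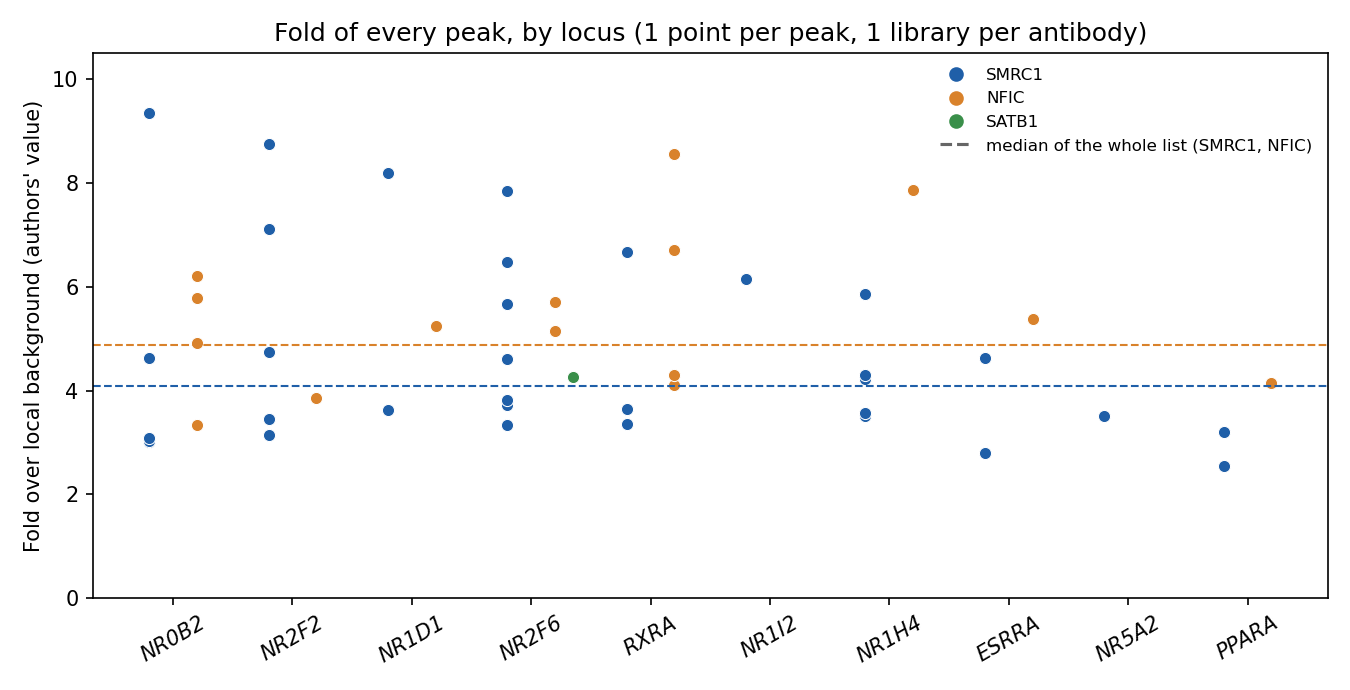
Fold over the local background for each of the 49 peaks, by locus in order of the highest SMRC1 fold (1 point per peak), with the medians of the whole SMRC1 (4.08) and NFIC (4.87) lists as dashed lines. NR0B2 reached 9.35 for SMRC1 and RXRA 8.56 for NFIC, while the SMRC1 points of PPARA and NR5A2 stayed below the SMRC1 median.

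Peaks at the 5′ end of the gene, defined as those with an edge within 2 kb of it even where the summit lay further away, were found at 6 loci for SMRC1, 3 for NFIC and 0 for SATB1. For SMRC1 these were the 5 short genes and NR1H4, and for NFIC they were NR0B2, NR1D1 and NR1H4. RXRA, PPARA, NR1I2 and NR5A2 had no peak of any list there, with the nearest SMRC1 summit at 2.72, 2.44, 15.8 and 89.5 kb. The 11 SMRC1 peaks at 5′ ends had a median −log10 q of 13.4, against 7.22 for the other 22. For NFIC the medians were 33.8 for 3 peaks and 13.3 for 12. The medians of the whole lists were 8.74 for SMRC1 and 9.27 for NFIC. Gene starts other than those of the 10 genes were not analysed here, so these counts and medians have no background and say nothing particular to nuclear receptor genes. The 3 NFIC peaks at a 5′ end all overlapped SMRC1, as did 51.9% of the whole NFIC list. Of the 11 SMRC1 peaks at 5′ ends, 3 overlapped NFIC, against 23.7% of the whole SMRC1 list. By place of the summit, 10 SMRC1 peaks were upstream of the gene, 19 within it and 4 beyond its 3′ end. The NFIC peaks were divided into 6, 8 and 1.

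Overlap of SMRC1 and NFIC was frequent from the NFIC side. Of the 15 NFIC peaks, 12 overlapped an SMRC1 peak (80%, exact Clopper-Pearson 95% interval 51.9 to 95.7), against 51.9% of the whole NFIC list. Of the 33 SMRC1 peaks, 12 overlapped an NFIC peak (36.4%, 20.4 to 54.9), against 23.7% of the whole SMRC1 list. The lower bound of the first interval lay at the share of the whole list, and the second interval included it. The overlapping sites came from 7 loci, 3 each from RXRA and NR0B2, 2 from NR2F6 and 1 each from PPARA, NR1H4, NR2F2 and NR1D1. NFIC peaks without SMRC1 were those inside RXRA at 7.41 kb, beyond NR0B2 and at the far end of ESRRA, and their folds of 5.37 to 6.70 were above the median of 5.02 for the 12 that overlapped.

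SMRC1 peaks that overlapped NFIC had a higher median significance than those that did not, and so did the whole list. Their median −log10 q was 15.2 (12 peaks) against 7.22 (21 peaks), and over the whole SMRC1 list the medians were 17.2 and 7.50. The SMRC1 peak was the wider of the pair at 11 of the 12 sites, and in 79.9% of the 7143 overlapping pairs of the genome. Summits were a median of 99.5 bp apart, from 1 bp at the 3′ end of NR0B2 to 291 bp upstream of NR2F6, and the median over all pairs of the genome was 86.0 bp. At 6 sites the SMRC1 peak held the higher percentile in its list and at 6 the NFIC peak. The largest differences were at NR2F2, where SMRC1 was 74.1 percentile points higher, and at the 3′ part of RXRA, where NFIC was 53.7 points higher. By fold the division was also 6 and 6. Over all 7143 pairs NFIC had the higher percentile in 31.7% and the higher fold in 36.2%.

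**Figure D4:**
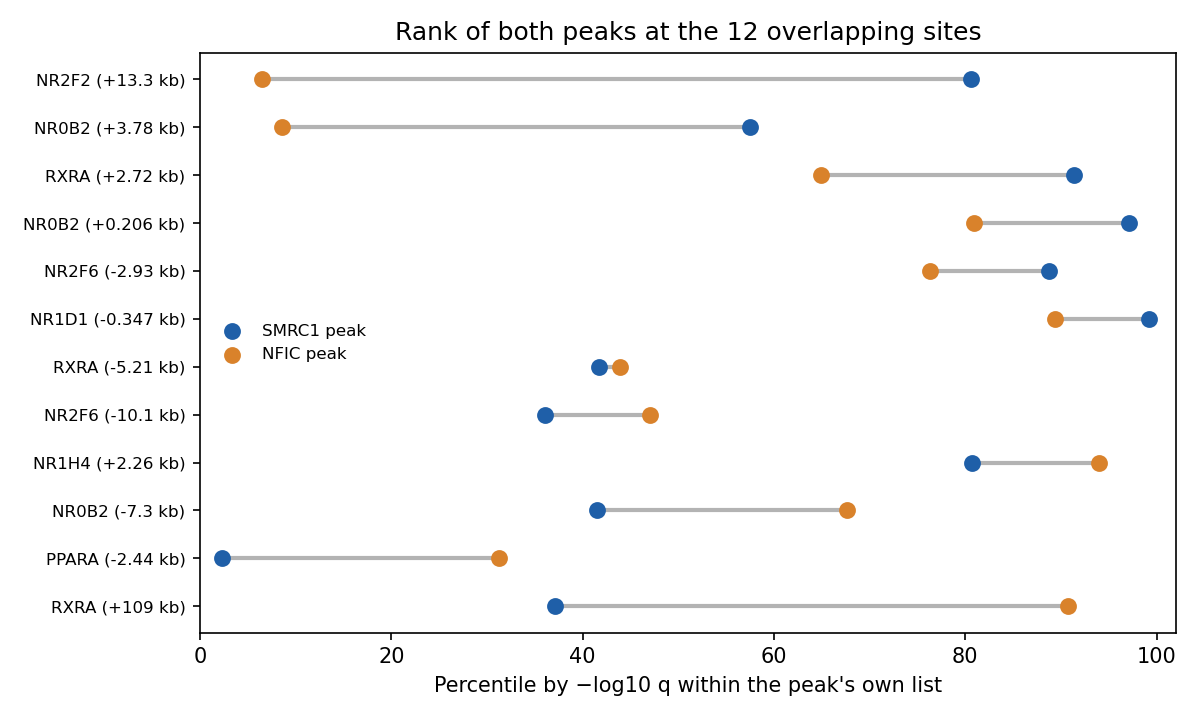
Percentile by −log10 q, within its own list, of the SMRC1 and the NFIC peak at each of the 12 overlapping sites, named by gene and distance of the SMRC1 summit from the 5′ end. Sites are ordered by the difference, from NFIC higher at RXRA (90.7 against 37.1) to SMRC1 higher at NR2F2 (80.6 against 6.53).

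The SMRC1 peaks of these loci had values near those of the whole SMRC1 list. A −log10 q of at least 10 was reached by 14 of 33 (42.4%, 25.5 to 60.8), against 43.7% of the list, and the median fold was 3.82 against 4.08. NFIC peaks reached it in 10 of 15 cases (66.7%, 38.4 to 88.2), against 46.3% of the list, and their median fold was 5.24 against 4.87. That interval includes the share of the list. A percentile above 90, which 10% of each list has by construction, was held by 4 SMRC1 peaks (12.1%), at NR1D1, NR0B2, NR2F6 and RXRA, and by 2 NFIC peaks (13.3%), at NR1H4 and RXRA. Median summits held 42.0 reads for SMRC1 and 46.0 for NFIC, where the lists had 45.0 and 32.0.

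SATB1 had 1 peak in the nuclear receptor loci, close to the number that its density over the genome gives for windows of this size. This peak, upstream of NR2F6, was also the only one to overlap the others, so 1 of 33 SMRC1 peaks (3.03%, 0.0767 to 15.8) and 1 of 15 NFIC peaks (6.67%, 0.169 to 31.9) had a SATB1 peak, against 8.61% and 6.52% of the lists. Both intervals include these shares. From the start of the other 9 genes the nearest SATB1 peak lay 21.1 kb away for NR1D1, 34.8 kb for ESRRA, 79.4 kb for NR0B2 and from 139 to 1481 kb for the remaining 6. Long genes can lie nearer by another part, as PPARA did at 45.1 kb.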

How the data were processed

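ChIP-seq peak lists of 3 antibodies in HepG2, with 1 library each, were analysed. The submitters' processing notes name Bowtie 1.1.2, MACS2 2.1.1, SAMtools and deepTools, with hg19 as the build. The caller's settings and control were not stated in the labels. The deposited lists, in narrowPeak order without header, give each peak's position, a score (10 times −log10 q, rounded down, in the deposited lists), the authors' fold (a ratio), −log10 p and −log10 q. The lowest deposited −log10 q was 1.01, 1.02 and 1.04 for SMRC1, NFIC and SATB1.

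Gene positions came with the choice of loci, in hg19 and to 1 kb, and no hg19 annotation was used here, so exons and introns are not given. The gene lengths were compared with RefSeq GRCh38.p14, where they differed by at most a few kb. Strand came from the RefSeq start table for 8 genes and from general knowledge for NR0B2 and NR2F6. Overlap meant at least 1 bp. Chromosome lengths came from GenomeInfoDb 1.38.1.

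Reads and background at each summit were solved from the fold and the p-value by the MACS2 expressions, taking the solution with whole reads (within 0.05). Most peaks had several solutions, and the scale of the reads was set on 2287 SMRC1, 952 NFIC and 14 SATB1 peaks with 1 solution. A single solution whole within 0.001 was found for 99.3%, 99.9% and 99.7% of the lists. In this solution the reads of SMRC1 were divided by 1.29 and those of NFIC by 1.01 before the fold was taken, and total depth is unknown. The calculation was tested on simulated peaks.

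Every locus is named. Peaks are named where they are the strongest of a list at a locus, shared by 3 lists or within 2 kb of a 5′ end, and since the loci hold few peaks the others are given too, chosen after their values were seen. Genes, motifs and rules were chosen with earlier results of these data known. No test between antibodies was possible. Percentages have exact Clopper-Pearson 95% intervals, and density ratios take the same interval of the share of peaks. The software was scipy 1.17.1, pandas 2.3.3, numpy 2.4.6 and matplotlib 3.10.9 under Python 3.11.15. Alternatives varied the flank, the −log10 q, the overlap, the 5′ distance and the number of peaks per list. Other nuclear receptor genes were not analysed here.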

Additional observations from a re-analysis of the deposited data

How the results depend on the processing

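Of 92 values under other settings, 68 stayed within 1.5 times the reported count or inside the reported interval, and 24 did not. Without flanks the loci held 21 SMRC1, 9 NFIC and 0 SATB1 peaks (0 loci and a density ratio of 0 for SATB1), and a flank of 5 kb also left 0 SATB1 peaks, at 0 loci with a ratio of 0. A flank of 25 kb gave 23 NFIC peaks and 2 SATB1 peaks at 2 loci. With only peaks of −log10 q of at least 10, SMRC1 fell to 14 peaks, SATB1 to 0 at 0 loci (ratio 0), and the share of NFIC peaks at SMRC1 sites to 50%. With 3296 peaks from each list, the loci held 4 SMRC1 peaks at 4 loci, 3 of these at a 5′ end, and 7 NFIC peaks at 5 loci, with an NFIC density ratio of 8.85 and 28.6% of the NFIC peaks at SMRC1 sites. Fewer peaks enter these last settings by construction. The share of the whole NFIC list at SMRC1 sites was not counted under these cuts. The 50% and 28.6% therefore have no background and cannot be set against the 51.9% of the uncut list. Within 5 kb of the 5′ end, 6 loci had an NFIC peak. For SMRC1 this distance gave 8 loci, which stayed within 1.5 times the reported count. The density ratios of SMRC1 stayed inside the reported interval under every setting tried. No paired analysis was possible because each antibody had 1 library. The 15 NFIC peaks and the 1 SATB1 peak set the width of the intervals.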

Other observations

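Just beyond the 10 kb flank, NR1D1 had more neighbouring peaks than any other of the 10 genes. Between 10 and 25 kb from it lay 5 SMRC1, 4 NFIC and 1 SATB1 peaks, where the other loci had at most 2, 1 and 0. The share of genome pieces with as many peaks was not counted for these stretches, so the counts have no background. The strongest was an NFIC peak on chromosome 17 at 38227889 to 38229324, with a fold of 12.8, 119 reads and rank 268 of 13643, which is above every NFIC peak inside the 10 windows. The SMRC1 peak that overlapped it had a fold of 3.21 and 39 reads. Upstream of NR1D1, at 38269589 to 38271413, the order was the opposite, with an SMRC1 peak of fold 7.24 and 136 reads over an NFIC peak of fold 3.29 and 52 reads. Peaks of all 3 antibodies overlapped around 38277979 to 38278383, where SMRC1 had a fold of 3.70, NFIC 3.64 and SATB1 2.29. These positions were looked at after the values within the windows had been seen, and were not assigned to a gene. NR1H4, RXRA, NR1I2, NR5A2 and NR2F2 gained 0 peaks of any list between 10 and 25 kb.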
